A study of Mus musculus with 17 samples.

Results

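The transcription factors Neurod1, Neurod2, Neurod6, Zbtb18, Bhlhe22, Tbr1, Bcl11a, Lhx2 and Emx1 are part of the program that gives forebrain excitatory neurons their identity. They were followed in the hippocampus of mice that lack the lysine acetyltransferase CBP in these neurons and of control mice. The members are the 9 genes with these symbols among the 55471 genes of the count table, matched by their Ensembl identifiers. All 9 had counts in every library and entered every fit. The question was whether the identity factors hold when CBP is lost, at rest and after the kindling treatment.

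Neurod1, Neurod2 and Neurod6 are basic helix-loop-helix (bHLH) activators that bind E-boxes as partners of the E proteins and drive neuronal differentiation. Bhlhe22 is a bHLH repressor and Zbtb18 is a zinc finger repressor that also recognises an E-box, and both act in the maturation of excitatory neurons. Tbr1 is a T-box factor, Bcl11a a zinc finger factor, and Lhx2 (LIM homeodomain) and Emx1 (homeodomain) pattern the dorsal telencephalon from which hippocampus and cortex develop. CBP and its paralogue p300 acetylate histones at enhancers and promoters and serve as coactivators for many such factors.

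The 17 libraries were made from hippocampal RNA of male C57BL/6 mice, 3 to 6 months old. Each came from a separate mouse. CBP-ifKO mice carried a floxed Crebbp gene and creERT2, a tamoxifen-inducible Cre recombinase, under the Camk2a promoter, so recombination is limited to cells in which this promoter is active and the other cells of the tissue keep Crebbp. Control mice were littermates that the methods describe as lacking creERT2 and that, like the CBP-ifKO mice, had received tamoxifen in 5 administrations. The sample labels list Camk2a_creERT2 for control samples too, which differs from the methods. Both genotypes were divided into 3 treatments: Sal (saline without kindling), PTZ0 (kindling by repeated doses of the convulsant pentylenetetrazole, PTZ, with saline as the final injection) and PTZ45 (kindling with 45 mg/kg PTZ as the final injection). Tissue was taken 45 min after that injection. The paper reports that no CBP-ifKO mouse reached the stage of progressive seizures, so kindling names the treatment here and not its outcome. With 3 libraries per group, but 2 for Control PTZ45, there were 8 control and 9 CBP-ifKO libraries.

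The libraries held 5831992 to 18735643 counts. Crebbp was at 1824 to 2429 normalized counts in the control libraries and at 1061 to 1337 in the CBP-ifKO libraries, 56.0% ± 4.38 of control (SD, n = 9), and the genotypes did not overlap. Esr1, whose exons report the creERT2 transgene, was at 41 to 77.8 in controls and at 703 to 941 in CBP-ifKO. Fos, an activity-induced gene, was at 2483 and 2915 in the Control PTZ45 libraries and at 163 to 288 in the CBP-ifKO PTZ45 libraries, against 13.4 to 62.4 in the libraries without PTZ on the last day. Ep300, which encodes p300, was 1.19 times as high in CBP-ifKO over all treatments (log2 fold change 0.25, SE 0.08, DESeq2 adjusted p = 0.0196). The libraries were sequenced on 3 lanes: Control Sal and Control PTZ0 on lane 3, Control PTZ45 and CBP-ifKO Sal on lane 4, and CBP-ifKO PTZ0 and CBP-ifKO PTZ45 on lane 5. Within each treatment the genotypes were therefore on different lanes, and genotype and lane cannot be told apart there.

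The 9 factors covered a wide range of abundance in control hippocampus. Levels between genes are compared as normalized counts per kilobase (kb) of exon. Neurod6 was at 1024 ± 118 per kb (SD, n = 8) and Zbtb18 at 986 ± 58.3, percentiles 98 and 97.8 of the genes whose mean reached 50 normalized counts. Bhlhe22 was at 328 ± 32.9 per kb and Neurod2 at 293 ± 23.9. Bcl11a (101 ± 12.1), Neurod1 (82.4 ± 8.75) and Lhx2 (82.1 ± 3.38) lay near the middle of the same genes (percentiles 59.3, 51.8 and 51.7). Tbr1 at 41.1 ± 6.59 and Emx1 at 24.6 ± 4.27 per kb were the least abundant. Neighbours in this order overlapped between libraries except at 3 steps, from Zbtb18 to Bhlhe22 (3.01 times), from Neurod2 to Bcl11a (2.89 times) and from Lhx2 to Tbr1 (2 times). In raw counts the members ranged from 25 to 86 per library for Emx1 up to 2614 to 8316 for Zbtb18, so the counting error was largest for Emx1.

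**Figure D1:**
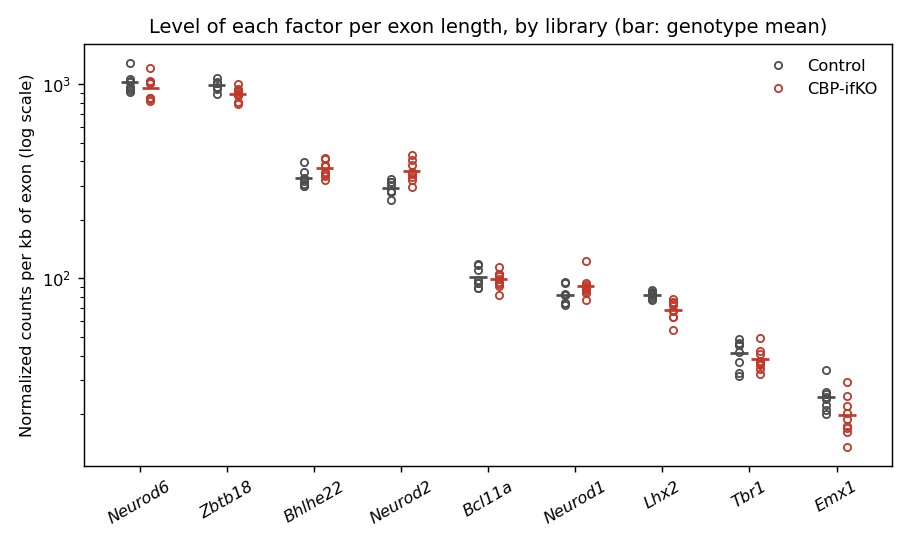
Normalized counts per kb of exon (log axis) for each factor, ordered by the control mean, with 1 point per library and a bar at the mean of 8 Control and 9 CBP-ifKO libraries. Neurod6 and Zbtb18 stand near 1000 per kb in both genotypes and Emx1 is the lowest.

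Neurod2, Zbtb18 and Lhx2 are shown by their promoter because their RNA differed between the genotypes in the test over all treatments. RefSeq windows of 250 bases before to 50 after the start of transcription (build GRCm38.p6) were found for 8 of the 9 members, with no entry for Bhlhe22. Where RefSeq lists several starts, the window nearest the start of the GENCODE gene was taken, which applied to Zbtb18 (5 starts) and Lhx2 (2 starts). Capitals mark every CANNTG, the E-box that bHLH factors bind, and every TGACG, the core of the cyclic AMP response element at which CREB recruits CBP, on either strand, written 5′ to 3′ in the direction of the gene. The Neurod2 window is chr11:98329596-98329895 on the minus strand, the Zbtb18 window chr1:177442101-177442400 on the plus strand and the Lhx2 window chr2:38339031-38339330 on the plus strand.
Neurod2: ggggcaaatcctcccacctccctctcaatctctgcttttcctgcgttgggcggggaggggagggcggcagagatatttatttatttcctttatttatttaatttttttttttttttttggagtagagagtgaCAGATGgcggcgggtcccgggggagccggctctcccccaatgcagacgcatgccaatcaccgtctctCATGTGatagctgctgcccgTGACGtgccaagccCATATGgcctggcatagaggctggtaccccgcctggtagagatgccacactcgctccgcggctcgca
Zbtb18: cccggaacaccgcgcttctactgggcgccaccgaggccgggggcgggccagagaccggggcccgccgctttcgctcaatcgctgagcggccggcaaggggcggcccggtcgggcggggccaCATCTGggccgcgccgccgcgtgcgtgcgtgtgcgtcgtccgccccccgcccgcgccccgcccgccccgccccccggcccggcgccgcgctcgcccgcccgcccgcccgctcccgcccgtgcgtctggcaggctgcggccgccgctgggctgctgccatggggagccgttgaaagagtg
Lhx2: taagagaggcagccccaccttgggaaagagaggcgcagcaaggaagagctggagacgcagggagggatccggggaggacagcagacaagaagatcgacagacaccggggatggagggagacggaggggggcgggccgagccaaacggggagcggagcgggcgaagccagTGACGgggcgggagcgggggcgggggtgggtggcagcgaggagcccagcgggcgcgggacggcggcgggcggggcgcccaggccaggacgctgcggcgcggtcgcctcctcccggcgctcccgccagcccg

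The Neurod2 window held 3 E-boxes and 1 TGACG. Its E-box at position -118 from the start reads CAGATG, the form bound by Neurod proteins, and its TGACG lies at -31. The Zbtb18 window, with a GC content of 81.7%, held 1 E-box, CATCTG at -129, which is CAGATG on the other strand, and no TGACG. The Lhx2 window held no E-box and 1 TGACG at -81. CANNTG was present in 72.1% of the 27025 RefSeq windows of the same length, CAGATG in 17.2% and TGACG in 21%, so these matches are common, and the full element TGACGTCA (1.9% of windows) was found in no member's window. The other 5 windows each held 1 or 2 CANNTG, none of them CAGATG, and no TGACG.

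Over all treatments the identity factors stayed between 80.7% and 122% of the control mean in CBP-ifKO hippocampus, in both directions. With treatment as a term, 4 of the 9 passed the test (two-sided Wald test of DESeq2, Benjamini-Hochberg adjusted p under 0.05 over all genes). Neurod2 and Bhlhe22 were higher and Zbtb18 and Lhx2 were lower. Of all 19443 genes tested, 18.4% passed, 7.4% higher and 11% lower. The median log2 fold change of the members was -0.11, against 0.01 for all genes tested, and their median absolute change was 0.16 against 0.12. In whole hippocampus, fewer cells of a type and less RNA per cell cannot be told apart.

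Neurod2, which supports the maturation and synapses of excitatory neurons, was the factor with the largest rise. In controls it was at 799, 983 and 989 normalized counts in Sal, 886, 870 and 945 in PTZ0, and 878 and 1020 in PTZ45. In CBP-ifKO it was at 1047, 1287 and 1358 in Sal, 1104, 1207 and 1009 in PTZ0, and 1083, 926 and 1097 in PTZ45. All 9 CBP-ifKO libraries lay above the control mean and 7 of them above the highest control library. On the log2 scale the difference was 0.29 (SE 0.07, adjusted p = 3.32e-04), a level of 122% of control with a 95% interval of 111% to 134%. The call was kept in each of the 17 fits that left out 1 library.

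Bhlhe22, the bHLH repressor, was higher by less. Its 8 control libraries ranged from 994 to 1324 normalized counts with a median of 1070, and the 9 CBP-ifKO libraries from 1069 to 1399 with a median of 1262. The genotypes overlapped over most of this range, and 2 CBP-ifKO libraries exceeded every control library. The difference was 0.17 on the log2 scale (SE 0.06, adjusted p = 0.0417), or 112% of control (95% interval 103% to 123%). The call was lost in 10 of the 17 fits that left out 1 library, with adjusted p up to 0.112 without CBP-ifKO PTZ0 replicate 2. These were each of the Control Sal and Control PTZ0 libraries, CBP-ifKO Sal replicates 2 and 3, CBP-ifKO PTZ0 replicate 2 and CBP-ifKO PTZ45 replicate 1.

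Lhx2, which keeps the cortical and hippocampal fate of forebrain progenitors, was the factor with the lowest level relative to control among those that passed. In controls it was at 383, 353 and 364 normalized counts in Sal, 372, 346 and 369 in PTZ0, and 360 and 338 in PTZ45. In CBP-ifKO it was at 303, 344 and 320 in Sal, 331, 327 and 278 in PTZ0, and 299, 239 and 278 in PTZ45. All 9 CBP-ifKO libraries lay below the control mean and 8 of them below the lowest control library, so that a single CBP-ifKO Sal library overlapped the control range. On the log2 scale the difference was -0.26 (SE 0.06, adjusted p = 2.56e-04), or 83.7% of control (95% interval 77.2% to 90.7%). The call was kept in each of the 17 fits that left out 1 library, and with a correction for GC content the change was -0.19 (adjusted p = 0.0136).

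Zbtb18, the most counted of the 9, was lower by a smaller amount. Its control libraries ranged from 5463 to 6616 normalized counts with a median of 6051, and the CBP-ifKO libraries from 4872 to 6145 with a median of 5505. The ranges overlapped, with 4 CBP-ifKO libraries below every control library and 8 of 9 below the control mean. The difference was -0.14 on the log2 scale (SE 0.05, adjusted p = 0.021), or 90.7% of control (95% interval 85.0% to 96.7%). The call was lost without Control Sal replicate 2 (adjusted p = 0.0514), without CBP-ifKO PTZ0 replicate 3 (0.0558) and without Control PTZ45 replicate 2 (0.071).

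The other 5 factors did not pass. Neurod1, which acts in newborn granule neurons of the dentate gyrus, was at 199 to 262 normalized counts in controls (median 223) and 212 to 336 in CBP-ifKO (median 244), or 112% of control (95% interval 99.5% to 126%, adjusted p = 0.197). The highest of these values was a CBP-ifKO PTZ0 library, and the remaining 8 CBP-ifKO libraries lay within the control range. Neurod6, a marker of mature excitatory neurons, was at 1971 to 2760 in controls (median 2151) and 1756 to 2596 in CBP-ifKO (median 2175), or 92.5% of control (95% interval 85.1% to 101%, adjusted p = 0.21). Of its CBP-ifKO libraries, 4 fell short of the lowest control library and none exceeded the highest.

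Bcl11a, a zinc finger factor of the same neurons, was at 97.2% of control in CBP-ifKO (95% interval 88.8% to 106%, adjusted p = 0.738), the member closest to its control level. Its libraries ranged from 1170 to 1559 normalized counts in controls and from 1082 to 1504 in CBP-ifKO. Tbr1 ranged from 171 to 266 in controls and from 176 to 270 in CBP-ifKO, nearly the same span, at 92.7% of control (95% interval 81.3% to 106%, adjusted p = 0.496). Emx1 ranged from 43.9 to 73.9 in controls and from 29.5 to 63.6 in CBP-ifKO, with 5 of 9 CBP-ifKO libraries below every control library. Its level was 82.6% of control, but at its low counts the 95% interval ran from 68.6% to 99.4% and the adjusted p was 0.154. With the correction for GC content its log2 fold change went from -0.28 to -0.12 (adjusted p = 0.587).

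**Figure D2:**
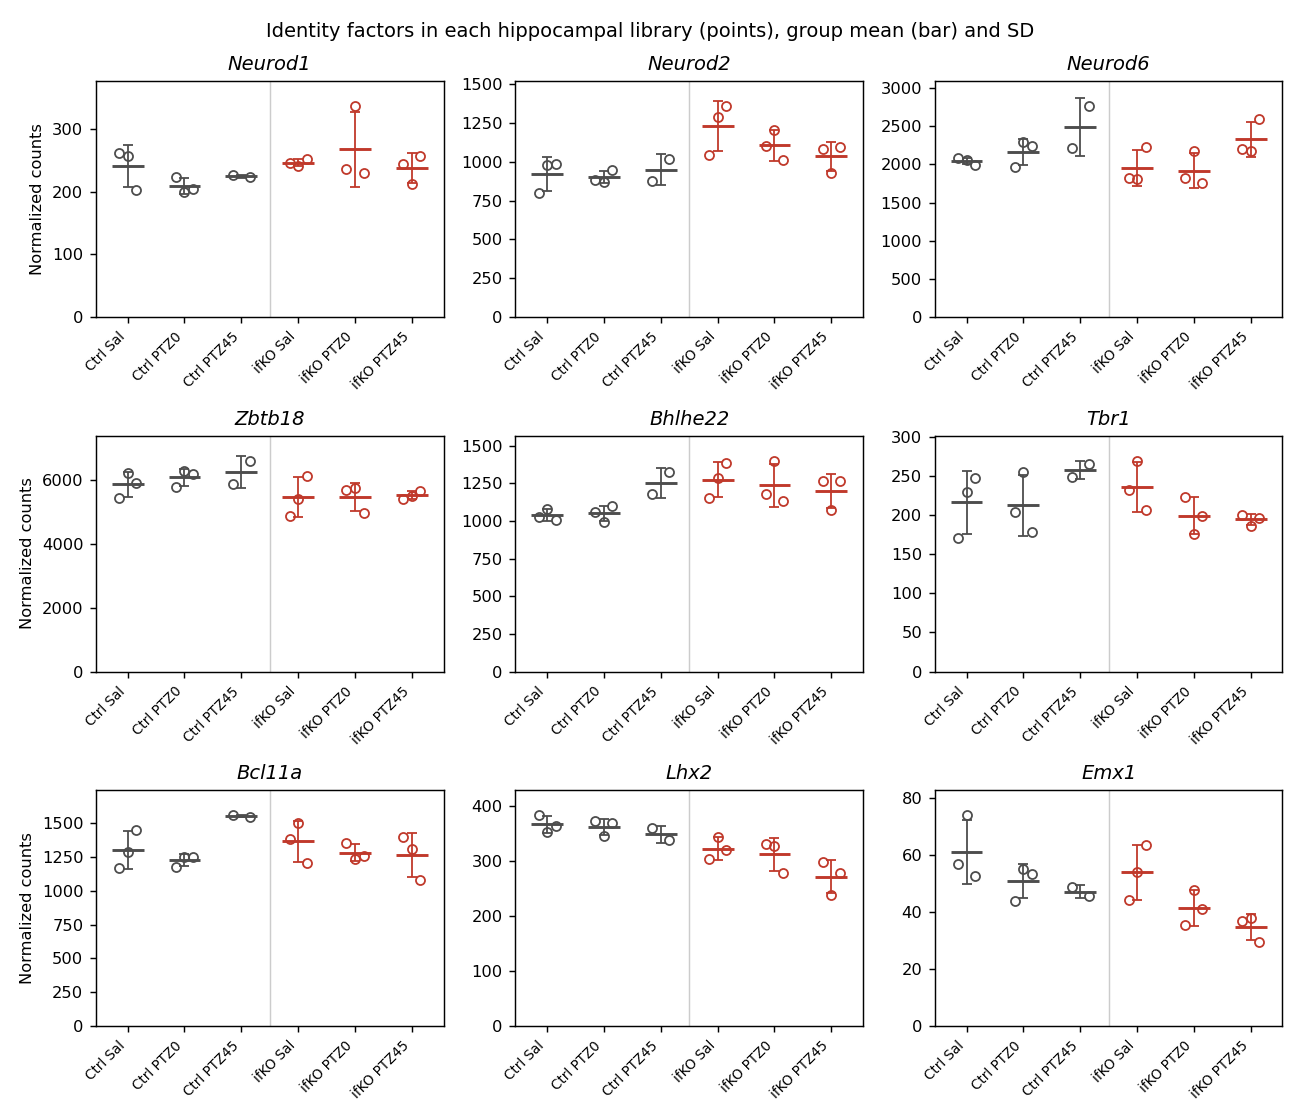
Normalized counts (linear axis from 0) of each factor in every library, with the mean and SD of each of the 6 groups, Control (Ctrl, grey) and CBP-ifKO (ifKO, red). All Neurod2 points of CBP-ifKO lie above the control mean, all Lhx2 points below it, and the genotypes overlap for every factor.

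No member separated the genotypes completely over the 17 libraries, which 2.88% of the genes tested did. Since a p above the threshold does not show that a factor holds, the difference was also tested against a bound of 25% above or 20% below control, the same fold in either direction. Neurod6 (adjusted p = 9.01e-04), Zbtb18 (2.56e-04), Bhlhe22 (0.017), Tbr1 (0.0264) and Bcl11a (5.34e-05) lay within this bound (Wald test of DESeq2 against the bound). These are 5 of 9, and 57.5% of the 16401 genes with an adjusted p passed. Zbtb18 and Bhlhe22 thus passed both tests in the fit without lane. Their calls of a difference were lost in 3 and 10 of the 17 fits that left out 1 library. For Neurod1 (adjusted p = 0.0546), Neurod2 (0.374), Lhx2 (0.185) and Emx1 (0.429) this test did not place the difference within the bound. All 9 members, Emx1 with an adjusted p of 0.0183, differed by less than 1.5-fold, as did 69.5% of genes.

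With sequencing lane as a further term, none of the 9 was called at adjusted p under 0.05, and 0.799% of 16404 genes were. This fit separates genotype from lane only by taking the effect of each treatment as equal in both genotypes, and it widened the intervals. The estimates for Neurod2 (0.24, SE 0.20), Lhx2 (-0.34, SE 0.20) and Zbtb18 (-0.12, SE 0.15) kept their sign. The estimate for Bhlhe22 went to -0.0046 (SE 0.17), and those for Neurod1 and Neurod6 changed sign, to -0.23 (SE 0.26) and 0.02 (SE 0.18). The estimate for Bcl11a went from -0.04 to -0.30 (SE 0.17). In this fit no member could be placed within that bound, and neither could any other gene.

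**Figure D3:**
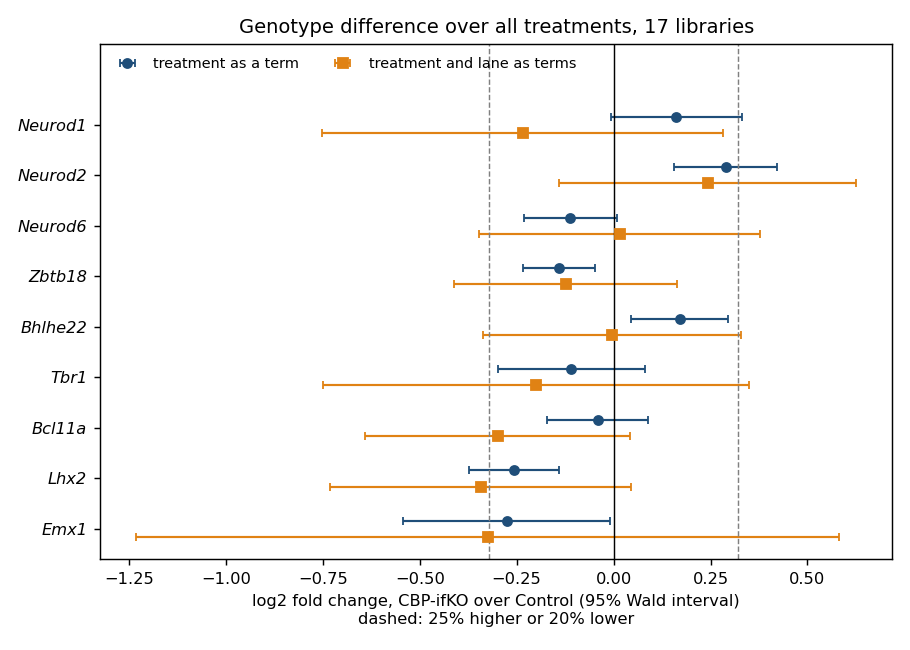
Log2 fold change of CBP-ifKO over Control for each factor over the 17 libraries, with the 95% Wald interval, fitted with treatment as a term (circles) and with treatment and lane (squares). Dashed lines mark 25% above and 20% below control; with lane as a term every interval crosses 0.

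Within single treatments, Neurod2 was the one factor that passed. In Sal mice it was higher in CBP-ifKO with a log2 fold change of 0.41 ± 0.12 (SE) and a DESeq2 adjusted p of 0.0272, where 2.28% of genes passed. In PTZ0 mice the change was 0.30 (SE 0.09, adjusted p = 0.0155), where 5.58% of genes passed. The CBP-ifKO libraries lay above all control libraries in both treatments. The genotypes did not overlap for 3 of the 9 members in Sal (21.8% of genes), 5 in PTZ0 (27.5%) and 5 in PTZ45 (34.6%). In PTZ45 mice the genotypes overlapped for Neurod2 and its change was 0.13 (SE 0.12, adjusted p = 0.771). The Sal call was lost with edgeR (adjusted p = 0.124) and in 5 of 6 fits without 1 library (all but the fit without CBP-ifKO Sal replicate 1), with adjusted p up to 0.336 without Control Sal replicate 1. The PTZ0 call was lost in 1 fit of all libraries (adjusted p = 0.0943) and without Control PTZ0 replicate 1 (adjusted p = 0.145), Control PTZ0 replicate 2 (0.143) or CBP-ifKO PTZ0 replicate 2 (0.124).

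Bhlhe22 did not overlap between the genotypes in Sal or in PTZ0, with log2 fold changes of 0.29 (SE 0.10, adjusted p = 0.0893) and 0.24 (SE 0.09, adjusted p = 0.0972). Its control libraries were at 1027, 1082 and 1005 normalized counts in Sal and 1058, 994 and 1097 in PTZ0, below all 6 CBP-ifKO libraries of these treatments. In Control PTZ45 it was at 1181 and 1324, inside the CBP-ifKO range, and the genotype difference there was -0.06 (SE 0.11, adjusted p = 0.918).

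Lhx2 had a negative genotype difference in every treatment, -0.20 in Sal, -0.22 in PTZ0 and -0.36 in PTZ45 on the log2 scale, and did not overlap between the genotypes in any of them, but no adjusted p was under 0.277. Zbtb18 had differences of -0.10, -0.15 and -0.18, with adjusted p from 0.182 to 0.785. Neurod6 had differences of -0.07, -0.17 and -0.09, and Emx1 of -0.18, -0.28 and -0.44, the last with no adjusted p because its mean count was under the independent filter of DESeq2.

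In PTZ45 mice none of the 8 members with an adjusted p passed, while 3.65% of genes did. At an unadjusted p under 0.05 there were 4 members, all lower in CBP-ifKO, and 12.3% of genes, 9.53% lower, and edgeR called no member. Bcl11a was at 1559 and 1549 normalized counts in the control libraries and at 1395, 1310 and 1082 in CBP-ifKO, a log2 fold change of -0.30 with an adjusted p of 0.146 (DESeq2). Tbr1 was at 249 and 266 in controls and at 201, 187 and 197 in CBP-ifKO, a change of -0.40 (SE 0.17, adjusted p = 0.248). The groups did not overlap for either gene, with 2 control libraries. The others of the 4 were Zbtb18 (-0.18) and Lhx2 (-0.36).

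**Figure D4:**
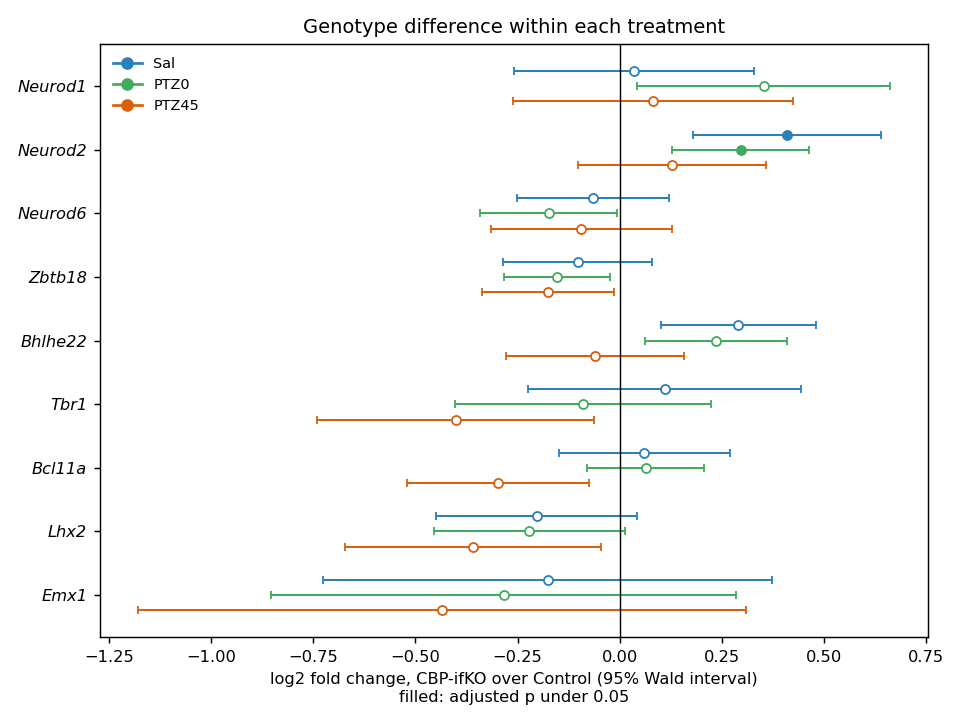
Log2 fold change of CBP-ifKO over Control within Sal, PTZ0 and PTZ45, with the 95% Wald interval; filled points have an adjusted p under 0.05. Neurod2 in Sal and PTZ0 are the filled points, and the PTZ45 estimates all rest on the same 2 control libraries.

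No factor passed the test for PTZ on the last day against Sal, although Fos rose. In this comparison, PTZ45 called no member in controls, where 1.11% of 18046 genes passed, or in CBP-ifKO, where 0.362% of 16297 passed (DESeq2; edgeR also called none). The libraries of the groups did not overlap for 5 members in controls, Neurod6, Bhlhe22, Tbr1, Bcl11a and Emx1, as for 32% of genes with only 2 PTZ45 libraries. In CBP-ifKO these were 3 members, Tbr1, Lhx2 and Emx1, against 13.6% of genes. At an unadjusted p under 0.05 there were 3 members in controls, Neurod6 (log2 fold change 0.28), Bhlhe22 (0.27) and Bcl11a (0.25), where 7.44% of genes had one. In CBP-ifKO there were 2, Neurod6 (0.25) and Neurod2 (-0.25), against 5.13% of genes. The kindling treatment alone, PTZ0 against Sal, called no member in either genotype by DESeq2 or edgeR and had none at an unadjusted p under 0.05. In controls and in CBP-ifKO, 0.00843% and 0.0112% of genes passed, and 0.581% and 0.336% had an unadjusted p under 0.05. The 2 control groups of that comparison shared a lane, while the CBP-ifKO groups were on lanes 4 (Sal) and 5 (PTZ0).

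Against PTZ0, Bcl11a rose in controls given PTZ45. Bcl11a was at 1177, 1250 and 1252 normalized counts in Control PTZ0 and at 1559 and 1549 in Control PTZ45, without overlap. The difference was 0.34 on the log2 scale (SE 0.08, adjusted p = 0.00226), or 127% of the PTZ0 level (95% interval 114% to 141%), where 1.43% of genes passed. The Control Sal libraries, at 1170, 1284 and 1450, reached nearer to the PTZ45 level. These groups were on different lanes, whose part was not tested, and the call was lost in 1 fit of all libraries (adjusted p = 0.117) and without Control PTZ0 replicate 1 (adjusted p = 0.215), 2 (0.0711) or 3 (0.0619).

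In CBP-ifKO the same comparison, with both groups on lane 5, called no member with DESeq2 or edgeR, and 0.092% of genes passed. Bcl11a was at 1355, 1233 and 1258 in PTZ0 and at 1395, 1310 and 1082 in PTZ45, a difference of -0.02 on the log2 scale (SE 0.10, adjusted p = 1). The CBP-ifKO PTZ45 libraries of Neurod6, at 2204, 2181 and 2596, lay above the PTZ0 libraries at 1825, 2175 and 1756. Its change of 0.28 (SE 0.10) had an adjusted p of 0.942, and it was the only member with an unadjusted p under 0.05, which 2.22% of genes had.

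The difference between the genotypes in the response to PTZ45 was tested as an interaction with the Sal libraries as reference. No member passed (adjusted p = 1 for each, DESeq2; edgeR also called none), and 0.208% of 29749 genes did. Bhlhe22 (log2 difference -0.36, SE 0.14), Bcl11a (-0.36, SE 0.16) and Tbr1 (-0.52, SE 0.23) had an unadjusted p under 0.05, each with the lower response in CBP-ifKO, as had 1.4% of genes, 1.01% with the lower response in CBP-ifKO. With the PTZ0 libraries as reference, chosen after the Bcl11a call was seen, its difference was -0.36 (SE 0.13, adjusted p = 0.913). The different response of Bcl11a to PTZ45 in the genotypes is therefore not shown at this number of libraries. Control PTZ0 and PTZ45 were on lanes 3 and 4 and both CBP-ifKO groups on lane 5. With Sal as reference, the groups of each genotype were on different lanes. Response and lane therefore cannot be told apart in either interaction.

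The cofactors with which these proteins work were read as lists, chosen with earlier results of these data known, in the same test over all treatments, so that their counts are a description. Of the LIM and Ldb cofactors, on which LIM homeodomain proteins such as Lhx2 assemble, all 6 were lower in CBP-ifKO, against 11% of all genes called lower, with a median log2 fold change of -0.28. The adaptor Ldb2 was at 543 ± 65.3 normalized counts in controls (SD, n = 8) and 414 ± 47.9 in CBP-ifKO (n = 9), a change of -0.41 (SE 0.07, adjusted p = 1.62e-07). The Ldb-binding protein Ssbp2 went from 1012 ± 79.1 to 773 ± 39.9, a change of -0.40 (SE 0.05, adjusted p = 6.70e-15). Lmo3 (-0.29), Ssbp3 (-0.27), Lmo4 (-0.23) and Ldb1 (-0.19) were lower by less. With lane as a term, read after these values were seen, all 6 estimates stayed negative but none was called (adjusted p from 0.244 to 1), as for the members, and with the GC correction all 6 were called.

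Of the bHLH partners and inhibitors of Neurod proteins, 2 of 7 passed, both lower, against 11% of all genes called lower. The list median was -0.07. Id2, an inhibitor that captures E proteins, fell to 73.7% of control (log2 fold change -0.44, SE 0.06, adjusted p = 8.22e-10). The E protein Tcf4 fell to 89.3% (-0.16, SE 0.03, adjusted p = 1.73e-05). The E proteins Tcf3 (-0.14) and Tcf12 (0.06) and the inhibitors Id1, Id3 and Id4 (-0.07, 0.06 and -0.01) did not pass. With lane as a term, no gene of this list, of the relatives or of the other forebrain factors was called.

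Of 9 relatives of the members, 3 had an adjusted p. Emx2, the paralogue of Emx1, was lower (-0.32, SE 0.11, adjusted p = 0.02), while Bcl11b (-0.10) and Lhx9 (-0.15) did not pass. Of 15 other transcription factors of forebrain excitatory neurons, 5 were lower and 1 was higher, with a median of -0.12. Of all genes tested, 11% were called lower and 7.4% higher. Prox1, the identity factor of dentate granule cells, rose from 1369 ± 149 to 1643 ± 124 (0.26, SE 0.06, adjusted p = 4.57e-04). Sox11, a factor of immature neurons, fell to 69.3% of control (-0.53, SE 0.08, adjusted p = 1.85e-09). Nfib (-0.21), Tle4 (-0.22), Foxp1 (-0.16) and Sox5 (-0.15) also fell, and the other 9, among them Mef2c and Zbtb20, did not pass.

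**Figure D5:**
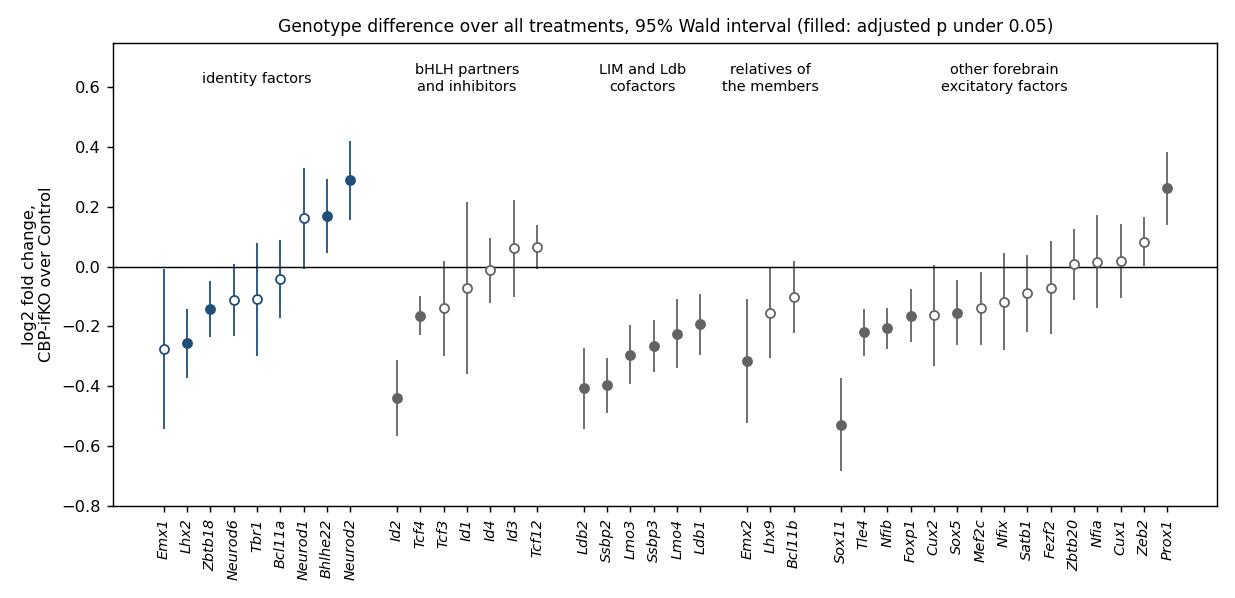
Log2 fold change over all treatments, CBP-ifKO over Control, with the 95% Wald interval, for the 9 identity factors (blue) and the genes of 4 companion lists with an adjusted p (grey); filled points have an adjusted p under 0.05. All 6 LIM and Ldb cofactors lie below 0, while the identity factors lie on both sides.

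Markers of the cell types of the tissue were read beside these results, and their part in them was not tested. The counts of markers called, here and in the next paragraph, stand against 11% of all genes called lower and 7.4% called higher. Of the 3 excitatory neuron markers, Neurod6 among them, none passed. Their sum was 25780 to 33920 normalized counts in controls and 29690 to 38800 in CBP-ifKO. The largest part of this sum was Camk2a, at means of 21850 and 23960, whose promoter also drives creERT2 in CBP-ifKO. Markers of CA1 pyramidal cells summed to 3864 to 4678 in controls and 2654 to 3501 in CBP-ifKO, with 4 of 4 lower and no overlap. Markers of dentate granule cells summed to 2985 to 3978 and 2805 to 3505, with 3 of 5 lower and Prox1 higher. Markers of CA3 pyramidal cells summed to 3153 to 3622 and 2426 to 3269, with 2 of 5 lower. No marker of these 4 lists was near 0. The same held for the upper cortical layer markers (lowest Lamp5, at a mean of 174), so this does not identify the tissue. With lane as a term, read after these values were seen, 1 of the 4 CA1 markers, 2 of the 5 dentate markers and none of the CA3 markers or of the lists that follow were called.

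Markers of immature granule neurons, among which Neurod1 acts, summed to 1043 to 1294 in controls and 735 to 984 in CBP-ifKO, with 2 of the 4 that had an adjusted p lower. Sox11 and Calb2 were the lower genes, Dcx had means of 417 in controls and 376 in CBP-ifKO (adjusted p = 0.125), and Eomes, which also marks intermediate progenitors, was near 0 with a mean of 2.99. Markers of deep cortical layers and subiculum, where Tbr1 is abundant, summed to 2063 to 2345 and 1946 to 2392, with 2 of the 5 that had an adjusted p lower, and those of upper cortical layers to 2772 to 3182 and 2685 to 3239, with 1 of 4 lower. Thalamic markers summed to 1379 to 1633 and 1418 to 1698 (0 of 4 called, Gbx2 at a mean of 0.55). Cajal-Retzius markers summed to 2495 to 2731 and 2073 to 2604 (1 of 3 lower, Lhx5 at a mean of 1.03). The largest control means of these 2 lists were Rora at 1137 and Reln at 2084, and which cells gave these counts was not tested. Interneuron markers had 2 of 7 lower, astrocyte markers 2 of 5, and oligodendrocyte, microglia and endothelium markers none. Choroid plexus markers differed widely between libraries of both genotypes, from 413.7 to 24340 in controls and from 414.3 to 44090 in CBP-ifKO, and 1 of 5 had an adjusted p.

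Across the 17 libraries, which share 1 scaling and hold both genotypes, the members differed in which of the others they were most like. Neurod2 was most like Bhlhe22 among the members (Pearson r = 0.809 of log2 normalized counts), Tbr1 most like Bcl11a (0.708), Neurod6 most like Zbtb18 (0.653) and Lhx2 most like Emx1 (0.61). Neurod1 was most like Bhlhe22 (0.606) and least like Tbr1 (-0.397). Among the 13040 genes whose mean reached 50 normalized counts, the most like gene was Atp8a2 for Bcl11a (r = 0.923), Galnt18 for Lhx2 (0.918), Brinp1 for Zbtb18 (0.899), Hist1h4h for Emx1 (0.887) and March5 for Bhlhe22 (0.873). It was Nars for Neurod6 (0.922), Mir124a-1hg for Neurod2 (0.867), Sncb for Tbr1 (0.859) and Dsel for Neurod1 (0.777).

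The members lie on chromosome 2 (Neurod1 at 79452521 to 79456751, Tbr1 at 61802930 to 61814114, Lhx2 at 38339281 to 38369733), chromosome 11 (Neurod2 at 98325415 to 98329648, Bcl11a at 24078056 to 24174123), chromosome 6 (Neurod6 at 55677822 to 55681263, Emx1 at 85187438 to 85204462), chromosome 1 (Zbtb18 at 177442351 to 177450764) and chromosome 3 (Bhlhe22 at 18054174 to 18057517) of GRCm38. Neurod1 overlaps Cerkl on the same strand and Gm26755 on the other, and 9.7% of the 50-base words of its longest transcript also occur in their transcripts, so its counts are uncertain to that extent. Of the Bcl11a transcript 2.4% is shared with the antisense gene 4930538E20Rik. Zbtb18 and Lhx2 also have antisense partners, whose reads cannot be told apart because the use of strand in counting is not stated, but their longest transcripts and those of the other 5 members share no such word with another gene.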

How the data were processed

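The authors sequenced single-end reads of 50 bases, trimmed them with Trim Galore 0.6.4, aligned them with STAR 2.6.1 to GRCm38 (mm10), kept those above a mapping quality limit and summed them per Ensembl gene (exons, Rsubread). The deposited values are raw counts per gene. Of 18 columns, 1, whose name resembles a Control PTZ45 library, matched no sample and was not used. Symbols and positions came from GENCODE M21 (99.6% of identifiers matched), and promoters from RefSeq.

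The test was the two-sided Wald test of DESeq2 1.42.0 (R 4.3.3), the method of the study, on genes with at least 1 count, Benjamini-Hochberg adjusted over all genes with independent filtering. Pairs of groups were fitted alone, and the genotype over all treatments on the 17 libraries together, treatment being a term. Intervals are 95% Wald intervals. A further test asked whether a level lay within 25% above and 20% below control. Normalized counts are counts over DESeq2 size factors. As alternatives, edgeR 4.0.16 (quasi-likelihood test), TMM, a filter of 10 counts in 2 libraries, lane, GC content, the replicate number, 1 fit of all libraries, and the omission of each library were tried. The scripts were tested on simulated data.

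The text names all 9 members, Crebbp, Ep300, Esr1 and Fos as checks, up to 5 called genes per companion list by adjusted p (all 6 LIM and Ldb cofactors are given) and the gene most like each member. Other genes of the companion lists and marker lists were named after their values were seen. Some genes of these lists are not reported here. The members and lists were chosen with earlier results of these data known.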

Additional observations from a re-analysis of the deposited data

Results flagged for a closer look

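In the 18 sets of 8 control or 9 CBP-ifKO libraries of the 9 members, 3 libraries stood apart from the rest of their genotype by a Dixon test, which chance does in about 1 of 20 sets. Neurod1 was at 336 normalized counts in CBP-ifKO PTZ0 replicate 2, against 257 in the next library. Neurod6 was at 2760 in Control PTZ45 replicate 2, against 2292 in the next. Emx1 was at 73.9 in Control Sal replicate 2, against 56.9 in the next. None of the 3 genes was called over all treatments with or without these libraries.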

How the results depend on the processing

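Over all treatments 4 members were called by DESeq2, 0 with lane as a term and 2 to 4 when 1 library was left out. The difference of Bhlhe22 turned to -0.0046 with lane. Within 25% above and 20% below control there were 5 members, 0 with lane, 9 at a bound of 1.5-fold and 4 to 6 with 1 library left out. In Sal the count of 1 became 0 with edgeR, 2 in 1 fit of all libraries and 0 to 2 with 1 library left out. In PTZ0 the count of 1 became 0 in 1 fit of all libraries and 0 to 2 with 1 library left out. In controls, PTZ45 against PTZ0 had 1 member, 0 in 1 fit of all libraries and 0 to 3 with 1 library left out. PTZ45 against Sal in controls and PTZ45 against PTZ0 in CBP-ifKO had 0 members and 0 to 1 with 1 library left out. Causes were not tested. Apart from these and the replicate block, given next, the alternatives kept the count of members within 1.5 times, and of the single members' values 1369 kept their side of the threshold, 34 lost the call, 9 gained it and 1 reversed.

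Replicate numbers did not pair the libraries: over 40 same-number pairs the correlation of deviations ran from -0.523 to 0.532 with a median of -0.0606, and 7 of 17 libraries correlated best with their own number. With the replicate block the genotype test over all treatments called 3 members in place of 4, without Bhlhe22 (adjusted p = 0.0535). The block called 0 in PTZ0 (Neurod2 adjusted p = 0.0943), 1 for PTZ45 against Sal in CBP-ifKO (Neurod6), and 0 for PTZ45 against PTZ0 in controls (Bcl11a adjusted p = 0.655). With the GC correction added to the block, these counts were 1, 0 and 0.

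The depth limits Emx1 most, whose 25 to 86 counts per library leave a wide interval. With 2 Control PTZ45 libraries, and with genotype and lane on the same axis within each treatment, small differences after PTZ could not be resolved.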

Other observations

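Several genes that mark hippocampal fields were lower in CBP-ifKO (DESeq2, over all treatments, adjusted over all genes; chosen for naming after their values were seen). C1ql2, a synaptic protein of dentate granule cells, was at 31.7% of control (log2 fold change -1.66, SE 0.10, adjusted p = 2.10e-59), and Trpc6, a cation channel, at 58.5% (-0.77, SE 0.05, adjusted p = 1.22e-51). Of the same list, Prox1 was higher (0.26, SE 0.06, adjusted p = 4.57e-04) and Dsp did not pass (-0.05, adjusted p = 0.757). Wfs1, a marker of CA1 pyramidal cells, was at 46.5% (-1.11, SE 0.07, adjusted p = 8.12e-48). In CA3 markers, Cpne4 was at 73.7% (-0.44, SE 0.05, adjusted p = 1.73e-14), while Bok (-0.03, adjusted p = 0.882) and Nectin3 (-0.05, adjusted p = 0.578) did not pass. Slc17a7, the vesicular glutamate transporter of these neurons, did not pass either (0.10, SE 0.06, adjusted p = 0.286). With lane as a term, read after these values were seen, C1ql2 (-1.51, SE 0.32, adjusted p = 5.98e-04), Trpc6 (-0.74, SE 0.16, adjusted p = 0.00163) and Wfs1 (-0.83, SE 0.22, adjusted p = 0.0214) were called. These were 3 of the 10 genes of the dentate, CA1 and CA3 lists that had been called without lane, and Prox1, Tdo2, Fibcd1, Pou3f1, Mpped1, Grik4 and Cpne4 were not called (adjusted p from 0.142 to 1).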
